A study of Mus musculus with 6 samples.

Results

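The replication-dependent histone genes encode the H1, H2A, H2B, H3 and H4 proteins that package newly copied DNA. They were taken as all symbols of the count tables that begin with Hist1h, Hist2h, Hist3h or Hist4h, which gave 68 of 33006 genes: 6 H1, 19 H2A, 18 H2B, 12 H3 and 13 H4 genes. Of these, 45 passed the filter on low counts and were tested for a response to hydrogen peroxide (H2O2), 10 had no read in any library, and 13 had 1 to 45 reads in all 6 libraries together. The cells were primary pulmonary endothelial cells of C57BL/6 mice, grown in an endothelial medium to 80% confluence. For 6 hours they received either 300 uM H2O2 or, as the control, water alone, with 3 libraries per group. Each mRNA library was prepared from 100 ng of total RNA. Whether the libraries of a group came from separate cultures or animals is not labelled, so each p-value reflects the variation among these 6 libraries alone and may cover technical variation only. Passage, the cells' sex and their isolation are not given in the sources used here.

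Transcription of these genes and stability of their mRNAs rise as cells enter S phase and fall when replication ends or is blocked, which ties histone supply to DNA synthesis. Their mRNAs are the main class of animal mRNAs that end without a poly(A) tail. The 3′ end is instead made by cleavage a few bases after a conserved stem-loop, which is bound by the stem-loop binding protein encoded by Slbp. Some of these genes also yield longer, polyadenylated transcripts when the cleavage site is passed over, mostly in cells that do not divide. Libraries made by poly(A) selection therefore hold mainly the polyadenylated part of histone mRNA. The labels name an mRNA kit without saying how it selects mRNA.

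The stem-loop is shown for members of each class because it defines the 3′ end of these mRNAs and sorts the members for a comparison made further on. A match was a 16-base stretch after the coding sequence with a 6-base arm that starts with GG, a 4-base loop with T at its first and the third base, and the reverse complement of the arm. Capitals mark the paired arms, and the loop and 5 flanking bases on each side are in lower case.
Hist1h1e: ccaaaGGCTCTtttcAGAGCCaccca
Hist1h2ab: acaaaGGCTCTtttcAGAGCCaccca
Hist1h2ae: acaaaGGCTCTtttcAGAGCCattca
Hist2h2ac: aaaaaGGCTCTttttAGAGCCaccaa
Hist1h2bh: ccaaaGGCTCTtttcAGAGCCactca
Hist1h3c: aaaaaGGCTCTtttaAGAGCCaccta
Hist1h3g: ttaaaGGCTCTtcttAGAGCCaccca
Hist1h4d: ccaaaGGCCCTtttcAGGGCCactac
Hist1h4i: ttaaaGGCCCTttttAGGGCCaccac
Hist1h4j: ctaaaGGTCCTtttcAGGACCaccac
On GRCm38, the assembly of mm10, the stretch of Hist1h2ae lies in the last exon at chr13:23570663-23570688 on the minus strand, that of Hist1h2ab at chr13:23751567-23751592 on the plus strand, and that of Hist2h2ac at chr3:96220413-96220438 on the minus strand. A stem-loop was found in 46 of the 68 members and in 58 of 21810 other protein-coding genes (0.266%). All 34 matched H1, H2A, H2B and H3 genes had the arm GGCTCT, whereas the 12 matched H4 genes had GGCCCT (10 genes) or GGTCCT (Hist1h4b and Hist1h4j). Of the 22 members without a match, 16 have fewer than 40 annotated bases after the coding sequence, so the window could not hold most stem-loops.

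Most of the 68 genes lie on chromosome 13. Hist1h2al, at chr13:51202727-51203065, lies apart from the others there. It is annotated as a processed pseudogene without a coding sequence, had 1 read in all and was not tested. Chromosome 13 holds 55 of the 68 genes, chromosome 3 holds 10, chromosome 11 holds 2 and chromosome 6 holds 1. Many are near-copies of each other, which bears on every value: of the 50-base stretches of the annotated transcript, 56.8% were unique to Hist1h2ae among all GENCODE M21 transcripts, 6.00% to Hist1h2af and 6.08% to Hist1h3h, against 100% for Hist1h1a, Hist1h1b and Hist2h2be. Counting that sets aside reads with several matches would lower the values of such genes, so the level of a member may understate its mRNA. The 10 members with no read were Hist1h1t, Hist1h2aa, Hist1h2ba, Hist1h2bq, Hist1h2br, Hist2h2aa1, Hist2h2aa2, Hist2h3b, Hist2h3c1 and Hist3h2ba. A count of 0 allows up to 3 reads, or 0.109 to 0.134 CPM (read counts scaled by library size and TMM factor), for counting error alone. For Hist2h2aa1, Hist2h2aa2, Hist2h3b and Hist2h3c1 no 50-base stretch was unique, so a count of 0 does not show absence. Stretches also counted as shared where another gene model covers the same bases on either strand, without a near-copy elsewhere. Such models cover all of Hist2h3b (Gm20628, 488 bases) and Hist2h3c1 (Gm20634, 1825 bases). Hist1h1t, which encodes the linker histone of the testis, was unique in 100% of its 50-base stretches. Exons of all 19 H2A genes overlap another annotated gene on the opposite strand, and exons of Hist1h1e and Hist1h2be share 496 bases on the same strand. The strand setting of the counting is not given in the sources used here, so reads of opposite-strand partners cannot be told apart. Of these partners of H2A genes, only Gm20632, Gm20633 and Gm15444 were among the counted genes, with 0 to 18 reads per library. Reads on the bases shared by Hist1h1e and Hist1h2be cannot be assigned by strand.

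The libraries held 22455388 to 27618679 gene counts. Histone genes took 2205 to 4219 of these, a share of 0.00812% to 0.0153%. All 8 endothelial markers fixed for the check were tested, with summed levels of 4064 to 4151 CPM in controls and 4293 to 4321 CPM with H2O2. Of 6 epithelial markers, Sftpc, Scgb1a1 and Krt8 had no read and 1 was tested (Krt18, 0.199 to 0.941 CPM), with summed levels of 0.239 to 0.941 CPM in controls and 0.584 to 1.001 CPM with H2O2. Of 6 mesenchymal markers, Col1a2 had no read and 3 were tested (Pdgfra at 3.25 to 5.15 CPM, Pdgfrb and Acta2), with summed levels of 6.78 to 7.50 CPM in controls and 5.62 to 8.08 CPM with H2O2. Of 6 immune markers, Cd3e had no read, Ptprc was at 0 in 5 of the libraries, Csf1r was at 0.314 to 0.982 CPM, and Cd68, a lysosomal protein of macrophages, was at 157 to 169 CPM. Pairs of libraries of a group differed in chi-square per degree of freedom by 1.62 to 2.86 for the controls and 2.71 for H2O2 replicates 1 and 2, but by 8.61 and 10.96 for H2O2 replicate 3 with each of these. Without Gm26924, a gene model over ribosomal RNA sequence that was low in H2O2 replicate 3, the latter values were 3.13 and 3.59 and those of the other pairs 1.60 to 2.71.

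Per kilobase of coding sequence, the highest control levels were those of Hist1h1c (39.8 ± 1.38 CPM per kb, SD, n = 3), which encodes the linker histone H1.2, and Hist1h2bc (39.2 ± 3.09 CPM per kb), an H2B gene. These neighbours in the order did not differ beyond their spread. Next came the H4 gene Hist1h4i (25.9 ± 0.916 CPM per kb), the linker histone gene Hist1h1e (22.5 ± 1.48 CPM per kb) and the H2B gene Hist2h2be (14.1 ± 0.154 CPM per kb). On the same scale tested H2A genes spanned 1.29 to 7.74 CPM per kb and H3 genes 1.66 to 6.95 CPM per kb. Reads over annotated bases outside the coding sequence would raise these values. After the coding sequence lie 883 annotated bases in Hist1h1c, 745 in Hist1h2bc and 2195 in Hist2h2be, but 97 in the H2A gene Hist2h2ac. How far annotated length set this order was not tested. The 4 most abundant members by CPM (Hist1h1c, Hist1h2bc, Hist1h1e and Hist1h4i) took 48.4% of the control histone CPM. Most other members were thinly covered, with 32 of the 45 tested genes below 50 reads per library on average.

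Across the 3 libraries of each group, 1 of the 45 tested histone genes rose with H2O2 and 0 fell by edgeR's quasi-likelihood test (Benjamini-Hochberg adjusted p under 0.05 over 12924 genes). Of all genes tested, 9.7% rose and 10.8% fell. At an unadjusted p under 0.05 there were 5 members, by DESeq2's test 0 were called and by limma-voom 1. The median log2 fold change of the members was 0.09, against -0.00 for all genes. The member that rose was Hist1h2ae, which encodes a canonical H2A protein and lies at chr13:23570517-23571220. Its level was 0.797, 0.825 and 0.851 CPM in control replicates 1 to 3 and 1.23, 1.41 and 1.57 CPM in H2O2 replicates 1 to 3. All H2O2 libraries lay above all controls, with a log2 fold change of 0.77 (SE 0.249, adjusted p = 0.028 in edgeR). These values rest on 19 to 43 reads per library.

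The groups did not overlap for 4 members that were higher with H2O2 (Hist1h2ac, Hist1h2ae, Hist1h4i and Hist2h2be) and for 1 that was lower (Hist1h2bc). Over all tested genes 16.5% lay wholly higher and 18.2% wholly lower, so both shares were lower among the histone genes. For the other 40 tested members the groups overlapped. In the values that follow, H2O2 replicate 3 is set against the other 5 libraries. It was singled out with its values known, so its differences are described and not tested.

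Summed histone mRNA was 125, 133 and 131 CPM in control replicates 1 to 3 and 146, 153 and 80.5 CPM in H2O2 replicates 1 to 3. H2O2 replicates 1 and 2 thus held the highest values and H2O2 replicate 3 the lowest, at 60.5% of the median of the other 5 libraries. The group means were close (130 ± 4.07 CPM in controls and 127 ± 40.01 CPM with H2O2, SD, n = 3), but the SD of the H2O2 group was far wider. In bulk RNA, fewer cells in S phase, less histone mRNA per cell and a different mRNA selection in a library cannot be told apart. Without the 4 most abundant members the pattern was steeper, with 62.6, 70.9 and 67.6 CPM in controls and 86.0, 87.6 and 38.2 CPM with H2O2.

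By class, H3 mRNA differed most between H2O2 replicates 1 and 2 and the controls. It was 12.4, 13.8 and 13.7 CPM in controls and 19.8, 19.7 and 7.34 CPM with H2O2, so that replicates 1 and 2 stood at 149% and 148% of the control mean and replicate 3 at 55.1%. H2A mRNA was 13.6, 14.3 and 13.8 CPM in controls and 17.3, 17.5 and 8.65 CPM with H2O2. In both of these classes replicates 1 and 2 lay above every control and replicate 3 below. H4 mRNA, at 17.9, 21.5 and 19.0 CPM in controls and 25.3, 22.8 and 14.5 CPM with H2O2, had the same order. The linker histones and H2B differed in replicates 1 and 2: these were not both above the controls. H1 mRNA was 51.8, 49.8 and 49.8 CPM in controls and 49.5, 55.7 and 25.98 CPM with H2O2. H2B mRNA was 29.5, 33.7 and 35.0 CPM in controls and 34.2, 37.3 and 24.0 CPM with H2O2. Replicate 3 stood at 51.5% of the control mean for H1 and 73.3% for H2B, and was the lowest library for all 5 classes.

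**Figure D1:**
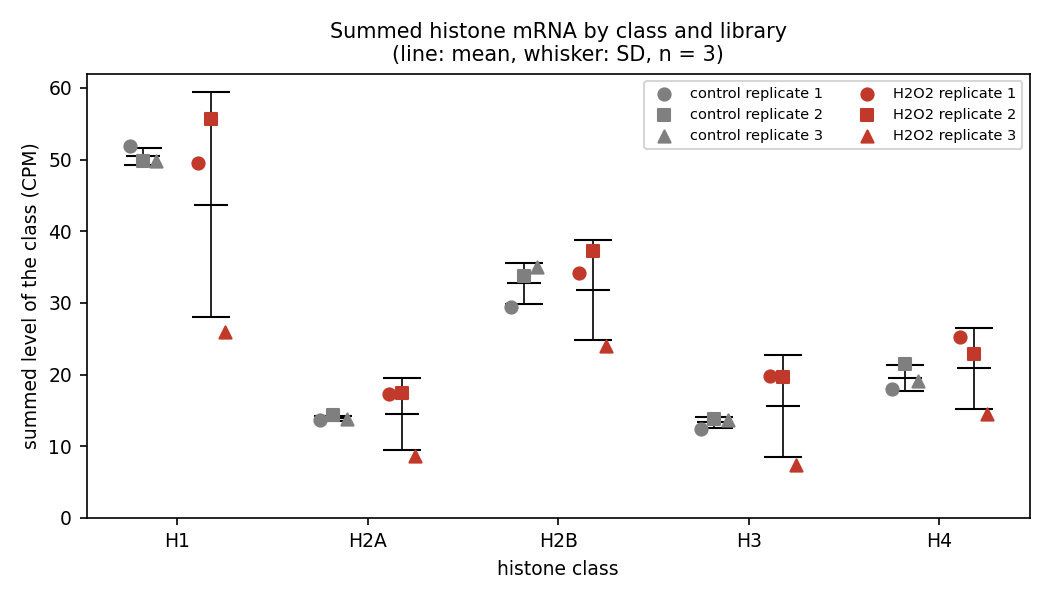
Summed level in CPM (y axis) of each histone class (x axis), 1 point per library, with control libraries in grey and H2O2 libraries in red, and the mean and SD of each group as line and whisker (n = 3). H2O2 replicate 3 (red triangle) is the lowest point in all 5 classes, and H2O2 replicates 1 and 2 lie above the controls for H2A, H3 and H4.

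Gene by gene, H2O2 replicate 3 was the lowest of the 6 libraries for 38 of the 45 tested members (84.4%), against 18.5% of all tested genes. It was the highest for 3 members (Hist1h2ae, Hist1h2ai and Hist2h2be), against 15.7% of all tested genes, and lay between other libraries for Hist1h2ac, Hist1h2bk, Hist1h4i and Hist3h2a. No other library was so often at the low end: control replicate 1 was lowest for 4 members, H2O2 replicate 1 for 2, control replicate 3 for 1 and the remaining libraries for 0. At the high end stood H2O2 replicate 2 for 19 members and H2O2 replicate 1 for 17. H2O2 replicates 1 and 2 lay both above all 3 controls for 31 members (68.9%), against 21.9% of all tested genes, and both below for 2 members (Hist1h2bc and Hist3h2a), against 23.2%.

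The combination of both was seen in most tested histone genes. It was picked with the histone values of these libraries known, so its shares are described and not tested. Members that share sequence are also not separate observations. For 27 of the 45 members (60%) H2O2 replicates 1 and 2 lay above all controls and replicate 3 below all controls, a pattern shown by 1.9% of all tested genes. The members were 0.348% of the tested genes and 11% of the genes with this pattern. It held for 9 of 9 H3 genes, 6 of 11 H2B genes, 5 of 10 H4 genes, 4 of 10 H2A genes and 3 of 5 H1 genes. The mirror pattern, replicates 1 and 2 below and replicate 3 above all controls, was found for 0 members and 0.99% of all tested genes.

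**Figure D2:**
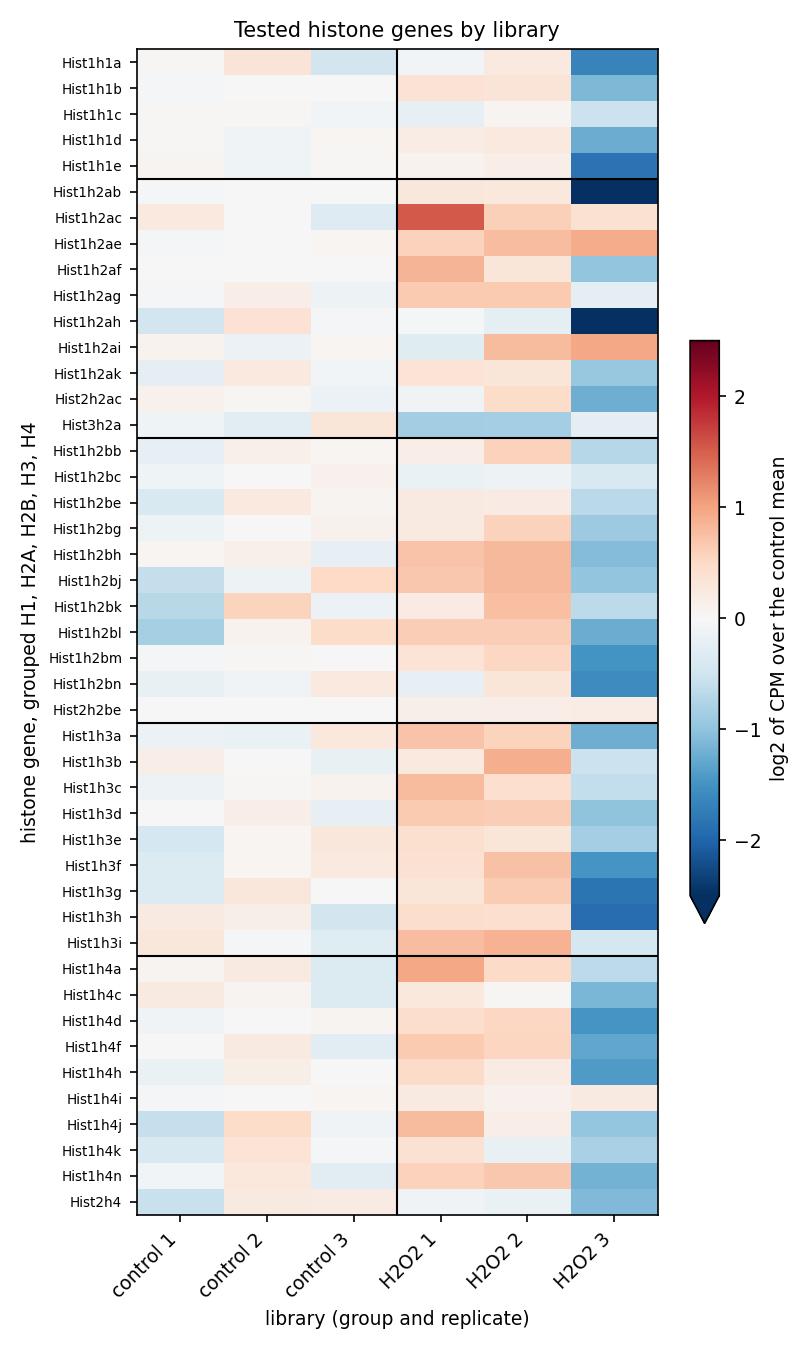
Level of the 45 tested histone genes (rows, grouped by class from H1 at the top to H4 at the bottom) in each of the 6 libraries (columns), as log2 of CPM over the gene's control mean, red above and blue below it. The column of H2O2 replicate 3 is blue for most genes and darkest for Hist1h2ab and Hist1h2ah, while Hist1h2ac, Hist1h2ae, Hist1h2ai, Hist1h4i and Hist2h2be are red in it.

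Among the linker histone genes, whose proteins bind DNA between nucleosomes, all 5 tested members were lowest in H2O2 replicate 3. Hist1h1c was at 25.8, 25.8 and 24.3 CPM in controls and 21.8, 26.6 and 17.5 CPM with H2O2. Its log2 fold change of -0.20 (SE 0.0887) did not pass (adjusted p = 0.11 in edgeR). Hist1h1e, which encodes H1.4, was at 15.5, 13.7 and 15.1 CPM in controls and 15.6, 16.6 and 4.09 CPM with H2O2. H2O2 replicates 1 and 2 thus lay above the controls, and replicate 3 was 1.90 lower on the log2 scale than the median of the other 5 libraries. That log2 difference, like those below, was taken from CPM with a prior count of 2 reads. Its group comparison did not pass (log2 fold change -0.29, SE 0.224, adjusted p = 0.405). Hist1h1d (-1.26), Hist1h1a (-1.52) and Hist1h1b (-1.10) had log2 differences of similar size, and Hist1h1c the smallest (-0.55).

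The H2A genes were the most mixed class, with 6 of 10 tested members lowest in H2O2 replicate 3 and 2 highest. Hist1h2ab had the largest log2 difference of all members, -2.37. It was at 1.95, 2.00 and 2.02 CPM in controls and 2.43, 2.39 and 0.328 CPM with H2O2, which are 63, 66 and 9 reads in the H2O2 libraries. Hist1h2ah had the next largest, -2.03, on 10, 18 and 12 reads in controls and 14, 13 and 2 reads with H2O2, too few to give a ratio. Both encode near-identical H2A proteins, and neither passed the test (log2 fold changes -0.22 and -0.61, SE 0.327 and 0.457). Hist2h2ac, the most abundant tested H2A gene by CPM, was at 3.23, 3.06 and 2.69 CPM in controls and 2.81, 4.13 and 1.28 CPM with H2O2. Hist1h2ak was at 2.23, 3.10 and 2.51 CPM in controls and 3.31, 3.23 and 1.35 CPM with H2O2, with a log2 fold change of 0.00. For Hist1h2ak, H2O2 replicates 1 and 2 lay above all controls and replicate 3 below. For Hist2h2ac, replicate 2 lay above all controls, replicate 3 below and replicate 1 within their range. In replicate 3 Hist1h2ai went the other way, with 0.558, 0.471 and 0.538 CPM in controls and 0.424, 0.906 and 1.02 CPM with H2O2. Hist1h2ac had its highest level in H2O2 replicate 1: 0.598, 0.511 and 0.403 CPM in controls and 1.46, 0.761 and 0.657 CPM with H2O2, without passing the test (log2 fold change 0.90, SE 0.349, adjusted p = 0.069 in edgeR). Hist3h2a, on chromosome 11, was lower in H2O2 replicates 1 and 2 (0.539 and 0.544 CPM) than in replicate 3 (0.839 CPM) and in the controls (0.917, 0.825 and 1.21 CPM).

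Of the H2B genes, 9 of 11 tested members were lowest in H2O2 replicate 3. For the 2 most abundant, all H2O2 libraries lay on 1 side of the controls. Hist1h2bc was at 13.7, 14.7 and 16.04 CPM in controls and 13.2, 13.5 and 11.4 CPM with H2O2, all below the controls, and narrowly missed the threshold (log2 fold change -0.22, SE 0.0809, adjusted p = 0.056 in edgeR). Hist2h2be, on chromosome 3, was at 5.26, 5.34 and 5.38 CPM in controls and 5.89, 6.02 and 6.09 CPM with H2O2. Its H2O2 libraries were close together and above the controls, replicate 3 included (log2 fold change 0.17, SE 0.105, adjusted p = 0.27). Both have long annotated ends, 745 and 2195 bases after the coding sequence, in which no stem-loop was matched. Hist1h2bh shows the pattern of most of the others: 1.12, 1.18 and 0.941 CPM in controls and 1.77, 1.88 and 0.511 CPM with H2O2. The log2 differences of H2O2 replicate 3 in the H2B genes ran from -1.50 for Hist1h2bl to 0.18 for Hist2h2be.

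All 9 tested H3 genes were lowest in H2O2 replicate 3, and in all 9 H2O2 replicates 1 and 2 were above every control. Hist1h3c, the most abundant of them by CPM, was at 2.59, 2.91 and 3.00 CPM in controls and 4.93, 3.81 and 1.86 CPM with H2O2. Hist1h3e was at 1.95, 2.75 and 3.23 CPM in controls and 3.50, 3.26 and 1.46 CPM with H2O2. Their log2 fold changes over all libraries were 0.31 (SE 0.215) and 0.06 (SE 0.228), and neither passed the test. Hist1h3g (0.718, 1.10 and 0.896 CPM in controls, and 1.12, 1.41 and 0.255 CPM with H2O2) and Hist1h3h (0.797, 0.746 and 0.493 CPM, and 0.924, 0.906 and 0.182 CPM) had the largest log2 differences of replicate 3 in this class, -1.82 and -1.75. They rest on 7 and 5 reads in that library. Hist1h3g has the loop base order tctt in place of tttc, as printed above.

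In the H4 class 9 of 10 tested genes were lowest in H2O2 replicate 3, and the exception was the most abundant one. Hist1h4i was at 7.70, 8.09 and 8.24 CPM in controls and 9.40, 8.66 and 9.34 CPM with H2O2, with all H2O2 libraries above the controls and replicate 3 close to replicate 1. Its log2 fold change of 0.19 (SE 0.0888) did not pass (adjusted p = 0.14 in edgeR). Hist1h4d was at 2.27, 2.44 and 2.55 CPM in controls and 3.27, 3.48 and 0.876 CPM with H2O2. The H4 proteins encoded by these genes are the same, yet their mRNAs in H2O2 replicate 3 stood on opposite sides of the controls. The remaining H4 genes had log2 differences in replicate 3 from -1.41 (Hist1h4h) to -0.71 (Hist1h4k).

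Without H2O2 replicate 3, which leaves 2 libraries in the H2O2 group, 7 of 47 tested members rose and 0 fell by edgeR's test. That library was left out with its low histone values known, which favours rises. The calls and adjusted p-values of this fit are therefore descriptive and no test of a response. Of all 13088 genes tested in that fit 8.99% rose and 10% fell. The 7 were Hist1h2ac, Hist1h2bh, Hist1h3c, Hist1h3d, Hist1h3i, Hist1h4d and Hist1h4n, and Hist1h2ae did not pass (log2 fold change 0.68, adjusted p = 0.10). The median log2 fold change was 0.39 and 41 of 47 members were above zero, where 28 of 45 were with all libraries. It was highest for H3 (0.61), followed by H2B (0.42), H4 (0.41), H2A (0.34) and H1 (0.13). Hist1h3i had the largest change among the called H3 genes: 1.67, 1.34 and 1.12 CPM in controls against 2.35 and 2.501 CPM, a log2 fold change of 0.81 (SE 0.225, adjusted p = 0.0080). With replicate 3, at 1.02 CPM, it was 0.49 (SE 0.261, adjusted p = 0.20). Leaving out H2O2 replicate 2 instead gave 0 members higher and 2 lower (Hist1h1c and Hist1h2bc), so the direction of the histone calls depended on which H2O2 library was absent.

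**Figure D3:**
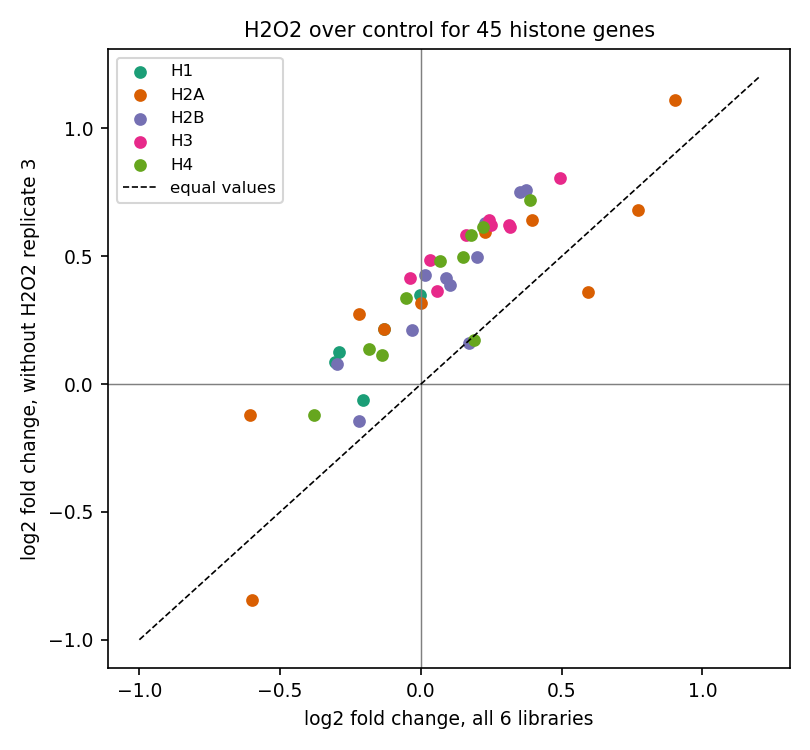
Log2 fold change of H2O2 over control for the 45 tested histone genes with all 6 libraries (x axis) and without H2O2 replicate 3 (y axis), coloured by class, with a dashed line of equal values. Most points lie above the dashed line. Hist1h2ae, Hist1h2ai and Hist3h2a lie well below it, and Hist1h4i and Hist2h2be just below.

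The annotated 3′ ends divided the members further. In 22 members the stem-loop lies within 60 bases of the annotated end, as in Hist1h2ab (11 bases), Hist1h3g (47 bases) and Hist2h2ac (57 bases). In 24 members the annotation runs on beyond it, as in Hist1h4i (330 bases), Hist1h4d (770 bases) and Hist1h2ac (2010 bases), and 22 had no match. The first set summed to 17.0, 19.9 and 17.8 CPM in controls and 23.1, 26.02 and 8.14 CPM with H2O2, so that replicate 3 stood at 40.9% of the median of the other 5 libraries. The second stood at 61.2% and the set without a match at 68.9%. By gene, replicate 3 was lowest for 12 of 13 tested members of the first set, 15 of 19 of the second and 11 of 13 of those without a match, with median log2 differences of -1.36, -0.97 and -1.10. The ranges of the 3 sets overlapped widely. Hist1h1e and Hist1h4i both have a stem-loop followed by a long annotated stretch, and their log2 differences were -1.90 and 0.18. The tables do not give read positions within genes, so which form of an mRNA the reads came from was not tested.

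**Figure D4:**
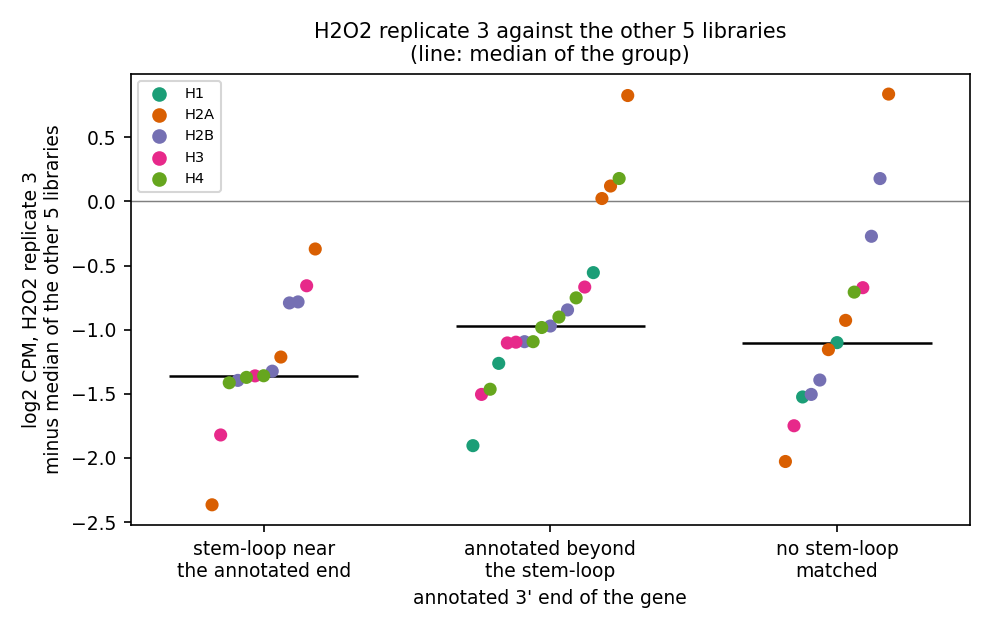
Log2 CPM in H2O2 replicate 3 minus the median of the other 5 libraries (y axis) for each tested histone gene, in 3 sets by the annotated 3′ end (x axis), coloured by class, with the median of each set as a line. The medians are -1.36, -0.97 and -1.10, and the sets overlap.

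Depth and shared sequence were set beside this. H2O2 replicate 3 was lowest for 11 of the 13 tested members with at least 50 reads per library on average and for 27 of the 32 below that. It was lowest for 22 of 27 members with at least 50% unique 50-base stretches and for 16 of 18 with fewer. By position, it was lowest for 36 of 41 tested members on chromosome 13, 2 of 3 on chromosome 3 (Hist2h2ac and Hist2h4) and 0 of 1 on chromosome 11. In total 24 of the 45 were lower by at least 1 log2 unit than the median of the other libraries.

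Promoters were found among RefSeq sequences (GRCm38.p6) for 61 of the 68 members, and motifs were searched on both strands of the 250 bases before the start. The octamer ATTTGCAT, bound by OCT1 with its coactivator in H2B genes, occurred in 6 of 16 H2B promoters (37.5%), 7 of 17 H2A promoters (41.2%) and 0 of the H1, H3 and H4 promoters, against 1.61% of 27025 promoters. The CCAAT motif occurred in 100% of the H1, H2A and H2B promoters, 80% of those of H3 and 25% of those of H4, against 34.5% of all promoters. TATAAA was found in 40% to 66.7% by class and in 13% of all. The windows around the octamer are shown for 3 H2A genes that differed in H2O2 replicate 3, with the octamer in capitals as it reads on the gene's own strand.
Hist1h2ab: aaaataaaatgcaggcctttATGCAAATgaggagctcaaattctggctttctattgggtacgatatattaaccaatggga
Hist1h2ac: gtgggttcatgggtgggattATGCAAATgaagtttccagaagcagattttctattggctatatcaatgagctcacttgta
Hist1h2ae: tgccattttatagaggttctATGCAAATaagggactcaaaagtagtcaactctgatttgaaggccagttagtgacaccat
They lie at chr13:23750939-23751018 (plus strand), chr13:23684030-23684109 (minus strand) and chr13:23571289-23571368 (minus strand). The log2 difference of H2O2 replicate 3 was -2.37 for Hist1h2ab, 0.12 for Hist1h2ac and 0.83 for Hist1h2ae, although each has the motif. Replicate 3 was lowest for 6 of the 10 tested H2A and H2B members with the octamer and for 8 of the 9 without it. Some of these genes face each other and share a window (Hist1h2ae with Hist1h2bg, Hist1h2ah with Hist1h2bk), so the promoters are not independent of one another.

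Histone genes that are expressed outside S phase gave another picture. Of 11 replication-independent variants, all tested, 6 rose with H2O2 and 0 fell, against 9.7% and 10.8% of all tested genes. Their median log2 fold change was 0.13. H2afz, which encodes the H2A.Z of promoter nucleosomes, was at 286, 296 and 285 CPM in controls and 347, 336 and 357 CPM with H2O2 (log2 fold change 0.26, SE 0.0303, adjusted p = 3.6e-07 in edgeR). H2afx encodes H2A.X, which is phosphorylated at DNA breaks, and has both a stem-loop and a polyadenylated form. It was the 1 variant on the list with a stem-loop match, and was at 90.8, 93.8 and 95.2 CPM in controls and 121, 105 and 116 CPM with H2O2 (log2 fold change 0.29, SE 0.0421, adjusted p = 1.2e-05). H1f0, the linker histone of resting cells, was at 633, 621 and 632 CPM in controls and 679, 671 and 680 CPM with H2O2 (log2 fold change 0.11, SE 0.0262, adjusted p = 0.0044). H2afv, H2afj and H3f3a also rose. Summed, the variants stood at 109% of the median of the other 5 libraries in H2O2 replicate 3, and it was the lowest library for 0 of the 11.

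Genes that make, process or carry histone mRNA and protein moved in both directions. Their median log2 fold changes were 0.01 for transcription and processing and -0.01 for chaperones. Over all tested genes 9.7% rose and 10.8% fell. Of 24 genes for histone transcription and mRNA processing, 4 rose (Eri1, Snrpb, Snrpe and Snrpg) and 3 fell (Cpsf3, Sympk and Snrpd3). Eri1, an exonuclease that trims the histone 3′ end, was at 266, 277 and 279 CPM in controls and 300, 309 and 312 CPM with H2O2 (log2 fold change 0.17, SE 0.0298, adjusted p = 0.00018). Sympk, a scaffold of the cleavage complex, had a log2 fold change of -0.14 (SE 0.0282) and Snrpd3, a core Sm protein, of -0.19 (SE 0.0352). Slbp was at 90.0, 92.0 and 91.2 CPM in controls and 88.9, 89.8 and 94.96 CPM with H2O2. Its log2 fold change was 0.003 (SE 0.0368, adjusted p = 0.97 in edgeR). H2O2 replicate 3 was the highest library for Slbp, as for 5 of the 24 genes in total and 15.7% of all tested genes. Of 25 histone chaperones, 2 rose (Rbbp4 and Atrx) and 3 fell (Ipo4, Ssrp1 and Nap1l4). Ipo4, which imports H3 and H4 into the nucleus, fell from 160, 164 and 158 CPM to 130, 136 and 137 CPM (log2 fold change -0.25, SE 0.0327, adjusted p = 2.0e-06). Ssrp1, a subunit of FACT, fell by 0.10 on the log2 scale. Set, the most abundant chaperone gene by CPM, had a log2 fold change of 0.04 (SE 0.0272) and did not pass.

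Of 29 S phase genes, 1 rose (Tyms) and 6 fell (Cdt1, Mcm2, Mcm3, Mcm5, Mcm6 and Mcm7), against 9.7% and 10.8% of all tested genes. The fallen genes encode helicase subunits and their loading factor. Mcm3 was at 371, 395 and 397 CPM in controls and 338, 336 and 341 CPM with H2O2 (log2 fold change -0.19, SE 0.0302, adjusted p = 2.8e-05 in edgeR), and Mcm2 had a log2 fold change of -0.19 (SE 0.0326). Rrm2, a ribonucleotide reductase subunit, was at 538, 546 and 543 CPM in controls and 545, 552 and 566 CPM with H2O2 and did not pass. In H2O2 replicate 3 the S phase genes summed to 100% of the median of the other 5 libraries, and the library was lowest for 5 of 29 of them and highest for 8. The processing genes stood at 101% and the chaperones at 98.7%.

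The summed level of RNAs known to lack a poly(A) tail was low in the same library, but this sum is almost wholly ribosomal RNA sequence. The list held 135 genes of the tables, of which 48 had no read and 19 were tested. Of the 19, 3 rose and 2 fell with H2O2, against 9.7% and 10.8% of all tested genes. Summed, the 135 genes were at 10466, 11928 and 11378 CPM in controls and 10151, 11433 and 3869 CPM with H2O2. H2O2 replicate 3 thus stood at 34.01% of the median of the other libraries. Nearly all of this was Gm26924, at 9834 and 11085 CPM in H2O2 replicates 1 and 2 and 3616 CPM in replicate 3. Gm26917, of the same kind, was at 194, 216 and 214 CPM in controls and 175, 179 and 149 CPM with H2O2. The feature mmu-mir-6236, grouped with the ribosomal RNA genes for scaling, was at 132.5, 142.7 and 128.6 CPM in controls and 76.6, 109.7 and 51.97 CPM with H2O2. It fell and was also lowest in replicate 3. Snord104 and Scarna17 were lowest there by narrow margins. Snord104 was at 0.985 CPM in H2O2 replicate 3 and 1.01 CPM in H2O2 replicate 2. Scarna17 was at 1.09 CPM in H2O2 replicate 3 and 1.12 CPM in H2O2 replicate 1. Rpph1, the RNA of RNase P, was at 2.51, 2.28 and 2.87 CPM in controls and 7.59, 6.71 and 8.50 CPM with H2O2, highest in replicate 3 (log2 fold change 1.58, SE 0.131, adjusted p = 1.2e-09 in edgeR). Rn7sk, the RNA that holds the elongation factor P-TEFb inactive, was at 25.0, 24.7 and 22.6 CPM in controls and 39.0, 35.9 and 25.4 CPM with H2O2, lower in replicate 3 than in replicates 1 and 2 but above the controls. H2O2 replicate 3 was lowest for 5 of the 19 tested RNAs and highest for 1, against 18.5% and 15.7% of all tested genes. The median log2 difference of the 19 in that library was 0.08, so the low sum was not shared by most of them. The part of RNAs without a poly(A) tail, or of what moved them, in the histone values of that library was not tested.

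**Figure D5:**
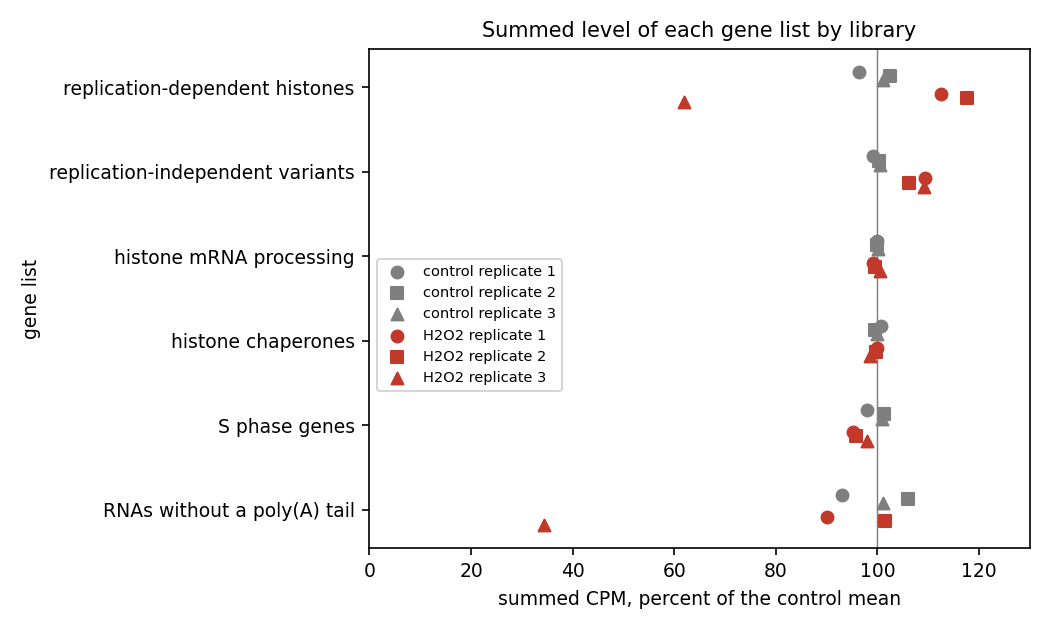
Summed CPM of each gene list (y axis) in each library, as percent of the list's control mean (x axis), with controls in grey and H2O2 libraries in red. H2O2 replicate 3 (red triangle) is at 62.0% for the replication-dependent histones and 34.4% for the RNAs without a poly(A) tail, and between 97.9% and 109% for the other 4 lists. The sum of the RNAs without a poly(A) tail is nearly all Gm26924, a gene model over ribosomal RNA sequence.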

How the data were processed

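RNA sequencing counts of 6 libraries, 3 per group, were analysed. The authors deposited a table of raw read counts for each library, with genes named by symbol. The submitters' processing notes name HTSeq, STAR 2.5.3, cutadapt, DESeq2 and bcl2fastq 2.17.1.14 with the build mm10, and no roles or order. The annotation and strand setting are not given in the sources used here. The 5 HTSeq summary classes were left out: no feature was 4.76% to 5.46% of all counted reads, ambiguous 3.17% to 3.30% and not unique 11.0% to 11.7%. Each library held 22455388 to 27618679 gene counts.

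Genes passing filterByExpr were tested with the quasi-likelihood test of edgeR 4.0.16 in R 4.3.3 (with limma 3.58.1, TMM factors, treatment as the only term, Benjamini-Hochberg threshold 0.05). CPM are counts over TMM-scaled library size. Class and list sums have no test. Alternatives were other scalings, DESeq2 1.42.0, limma-voom, looser and stricter filters, a replicate block, a loess offset for transcript length and GC content (span 0.3, values found for 94.6% of tested genes), and each library left out. Counting error sets the precision of members with few reads. Transcripts, coordinates and shared stretches came from GENCODE M21. The test and the offset were tested on simulated data.

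Members and lists were chosen with earlier results of these data known. Named members were those that passed, the 2 most abundant tested ones per class and the 5 with the largest log2 difference of H2O2 replicate 3. From other lists they were up to 2 passing genes with the smallest p and the most abundant one. Further genes were named after their values were seen.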

Additional observations from a re-analysis of the deposited data

How the results depend on the processing

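The count of histone genes that rose (1 of 45) was kept by the 4 other scalings and limma-voom. It was 0 by DESeq2's Wald test, 0 with the stricter filter (15 members tested, without Hist1h2ae), 0 with a length and GC offset and 2 with no filter. Histone genes that fell (0) became 3 with no filter (Hist1h1c, Hist1h1e and Hist1h2bc) and 2 with the offset (Hist1h1c and Hist1h2bc). Leaving out 1 library gave 0 to 7 higher and 0 to 2 lower, with 7 without H2O2 replicate 3 and 2 lower without H2O2 replicate 2. The median log2 fold change of the members ran from -0.18 (without H2O2 replicate 2) to 0.39 (without H2O2 replicate 3), so its sign rests on single libraries. The log2 of the summed level of H2O2 replicate 3 over the median of the other libraries stayed between -0.79 and -0.70 under all scalings and all fits without one of the other libraries. The cause of these shifts was not tested, beyond the smaller number of genes or libraries in the filtered and shortened fits.

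With the replicate number as a block, Hist1h2ae rose (adjusted p = 0.039) and 1 histone gene fell (Hist1h1c), and Hist1h2ak was at -0.0051 on the log2 scale. The block with the offset gave 2 lower (Hist1h1c and Hist1h2bc), 1 higher (Hist1h2ac), 3 higher S phase genes, and log2 fold changes of -0.19 for Hist1h2ak, -0.053 for Hist1h3e, -0.013 for Hist1h4d and -0.15 for Hist1h3g. Deviations of same-numbered libraries correlated by 0.00, 0.03 and -0.03. A weak pairing could give such values too, so they do not settle whether these libraries were paired. The labels state no pairing, and the main fit had no block.

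Several small values changed sign. By limma-voom the log2 fold changes were -0.10 (Hist1h2ak), -0.015 (Hist1h3e), -0.17 (Hist1h4d) and -0.26 (Hist1h3g), and with the offset -0.18 (Hist1h2ak), -0.046 (Hist1h3e) and -0.13 (Hist1h3g). Over the fits without 1 library they ran from -0.59 to 0.13 (Hist1h1e), -0.56 to 0.21 (Hist2h2ac), -0.19 to 0.32 (Hist1h2ak), -0.15 to 0.36 (Hist1h3e), -0.23 to 0.48 (Hist1h4d), -0.55 to 0.27 (Hist1h2ab), -0.41 to 0.48 (Hist1h3g) and -0.32 to 0.41 (Hist1h3h).

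Among the other lists, DESeq2's test gave 1 higher chaperone gene and 1 higher and 1 lower RNA without a poly(A) tail. Upper-quartile factors gave 2 higher S phase genes, and no filter gave 4 lower RNAs without a poly(A) tail. The offset gave 2 higher processing genes, 1 higher chaperone gene and 2 higher S phase genes. Without 1 library, all lower genes numbered 926 to 1313, higher chaperone genes 0 to 2, higher S phase genes 1 to 2 and lower RNAs without a poly(A) tail 2 to 4. The replication-independent variants kept 4 to 7 higher and 0 lower in every fit run. Depth limits members with few reads: 32 of 45 averaged fewer than 50 reads per library.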
